A study of Mus musculus with 5 samples.

Results

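Islet cells of control mice on a high-fat diet were set against islet cells of control mice on a normal diet, using the cell types, clusters and embedding positions that the authors assigned to each cell. The cells were taken from 2 libraries by their library name, 6667 cells from the high-fat library and 7998 from the normal-diet library, which makes 14665 of the 18221 cells of the series. Both groups were Atf6a fl/fl mice without Cre (ATF6a Control), so that ATF6α, a transcription factor activated by unfolded proteins in the endoplasmic reticulum, was intact. From 6 weeks of age they were fed a diet with 60% of energy from fat (high-fat) or 10% (normal), and islets were taken at 22 weeks. Each library was made from hand-picked islets pooled from 2 mice and belonged to batch 1. The other 3 libraries of the series came from cKO mice (RIP-Cre;Atf6a fl/fl, in which a rat insulin promoter drives Cre mainly in beta cells): 1 on the high-fat diet, batch 1, with 2483 cells, and 2 on the normal diet with 40 cells (batch 1) and 1033 cells (batch 2). No library of mice with RIP-Cre alone was analysed here.

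The islet is a small endocrine organ. Beta cells secrete insulin, alpha cells secrete glucagon, delta cells secrete somatostatin that restrains both neighbours, and PP cells secrete pancreatic polypeptide. Beta cells are known to increase in number when rodents on a fat-rich diet become insulin resistant. Islets also hold resident immune cells, mostly macrophages, and a dense bed of capillary endothelium, while acinar cells belong to the surrounding exocrine pancreas.

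With 1 library a side, diet cannot be told apart from the mice, the islet preparation and the cell recovery of each library, and no test across replicates was possible. The 95% intervals given here cover counting error only. The 8 cell type names could not be checked against marker genes, since expression per gene was not analysed here, and depth per cell is unknown. Of the cell barcodes, 73 occurred in both libraries (1.09% of the high-fat and 0.913% of the normal-diet cells). The authors gave the same cell type to both cells of such a barcode in 38 cases. Beta cells were 55.1% of the normal-diet and 72.6% of the high-fat cells. How many matches the shares of the types alone would give was not computed. In 4 of 12 types or clusters the control normal-diet library lay apart in the embedding from every other library with at least 20 such cells. They are named beside their results.

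Beta cells were more numerous relative to every other endocrine type in the high-fat library. With all cells counted, the pairwise ratios among alpha, delta and PP cells did not differ beyond counting error. Per 100 alpha cells there were 229 beta cells (217 to 242) on the normal diet and 626 (580 to 677) on the high-fat diet, 2.74-fold more (2.49 to 3.01). Per 100 alpha cells there were 49.1 delta cells (45.4 to 53.1) on the normal diet and 56.1 (49.8 to 63.2) on the high-fat diet, a ratio of 1.14 with an interval that includes 1 (0.990 to 1.32). PP cells numbered 16.8 per 100 alpha cells (14.9 to 18.9) and 19.0 (15.8 to 22.7), a ratio of 1.13 (0.907 to 1.40). Against delta cells, PP cells stood at 34.3 and 33.9 per 100, a ratio of 0.988 (0.782 to 1.24). None of these 3 pairs of non-beta endocrine types had an interval that excluded 1. These values depend on cells that lay mostly among another type in the embedding. Without such cells the log2 ratio of delta to alpha cells was 0.287 in place of 0.194. That of PP to alpha cells was 0.291 in place of 0.176, and no interval was made for either value. By counting error alone, the intervals with all cells counted leave room for a difference of up to 1.40-fold (PP per alpha cell). Differences between mice, preparations and recovery are not in these intervals. The data do not show that the proportions were equal.

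The same held for the 2 clusters of alpha cells. There were 200 cells of cluster 2 per 100 cells of cluster 8 on the normal diet (182 to 221) and 214 on the high-fat diet (184 to 250), a ratio of 1.07 (0.892 to 1.28). Alpha, delta and PP cells made up 60.3%, 29.6% and 10.1% of the non-beta endocrine cells on the normal diet and 57.1%, 32.1% and 10.9% on the high-fat diet. The ratio of the alpha shares was 0.947 with an approximate interval of 0.897 to 0.9999, which just excludes 1, and those of the delta and PP shares, 1.08 (0.986 to 1.19) and 1.07 (0.890 to 1.29), had intervals that include it. As a family, these 3 types made up 39.9% (38.9 to 41.0%) of all cells on the normal diet and 20.3% (19.3 to 21.3%) on the high-fat diet.

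Measured against alpha cells, each of the 6 beta clusters was more numerous in the high-fat library, including those that took a smaller part of its beta cells. Cluster 3 had 8.88 cells per 100 alpha cells (7.55 to 10.4) on the normal diet and 111 (100.2 to 122) on the high-fat diet, 12.5-fold more. Cluster 7 had 17.1 and 108 cells per 100 alpha cells, 6.31-fold more (5.40 to 7.37), and cluster 5 had 32.7 and 122, 3.72-fold more (3.26 to 4.25). Cluster 1, which was 55.4% of beta cells on the normal diet and 35.5% on the high-fat diet, stood at 127 and 222 per 100 alpha cells, a ratio of 1.75 (1.58 to 1.95). Cluster 6 had the smallest ratio, 1.43 (1.23 to 1.65), and cluster 9 stood at 3.69 and 7.50 cells per 100 alpha cells, a ratio of 2.03 (1.40 to 2.95). The choice of alpha cells as the reference sets the common part of these ratios, and the order of the clusters does not depend on it.

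**Figure D1:**
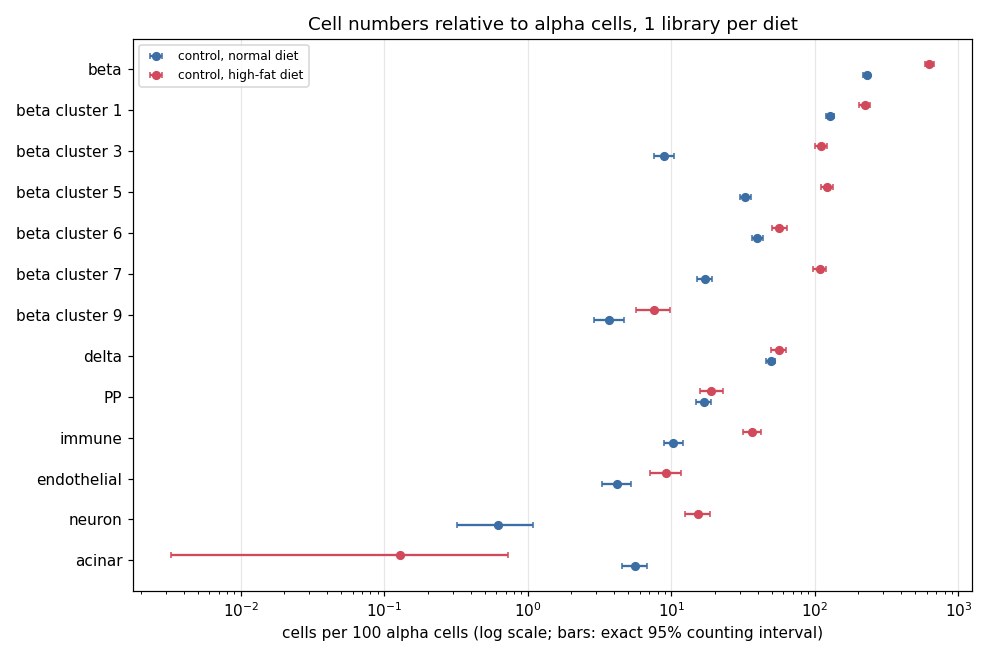
Cells per 100 alpha cells (log axis) in the control normal-diet library (blue) and the control high-fat library (red), for beta cells, each beta cluster and each other cell type; points are ratios of cell numbers and bars are exact 95% counting intervals. All 6 beta clusters lie to the right on the high-fat diet, delta and PP cells overlap between diets, and acinar cells alone lie to the left, from 107 cells to 1 cell.

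Relative to the non-beta endocrine cells, the remaining types were also more numerous in the high-fat library, apart from acinar cells. Immune cells numbered 6.23 per 100 alpha, delta and PP cells (5.37 to 7.19) on the normal diet and 20.8 (18.3 to 23.7) on the high-fat diet, 3.34-fold more (2.75 to 4.07). Endothelial cells numbered 2.505 (1.98 to 3.13) and 5.24 (4.07 to 6.66), 2.09-fold more (1.49 to 2.94). Per beta cell, however, endothelial cells did not differ beyond counting error, at 1.82 and 1.47 per 100 beta cells, a ratio of 0.808 (0.577 to 1.13). Immune cells per 100 beta cells stood at 4.52 and 5.83, a ratio of 1.29 (1.07 to 1.56). Immune cells were thus more numerous relative to beta cells and to the non-beta endocrine cells, and endothelial cells relative to the latter only.

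Cells annotated as neurons, of which there were 12 on the normal diet and 118 on the high-fat diet, numbered 0.623 and 15.3 per 100 alpha cells. The ratio was 24.5 (13.4 to 49.0) against alpha cells, 6.94 (3.69 to 14.2) against immune cells and 11.1 (5.48 to 23.7) against endothelial cells. Without the cells of all types that lay mostly among another type in the embedding, which left 6 and 117 neurons, these ratios rose from 4.61 to 5.56 against alpha, from 2.79 to 3.76 against immune and from 3.47 to 4.46 against endothelial cells, all on the log2 scale. Acinar cells numbered 107 and 1, or 5.56 and 0.129 per 100 alpha cells, a ratio of 0.0233 (0.000583 to 0.133). Endothelial cells per immune cell were lower on the high-fat diet, at 25.2 against 40.2 per 100, a ratio of 0.626 (0.426 to 0.920).

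Over all 21 pairs of non-beta types, 18 (85.7%) differed more than 1.5-fold between the libraries, and the same number had an interval that excluded 1. The 3 pairs within 1.5-fold were those among alpha, delta and PP cells. Without the neuron and acinar cells, which had only 12 and 1 cells in a library, 7 pairs were past 1.5-fold. Fewer pairs could then be formed, and those within 1.5-fold were again the 3 among alpha, delta and PP cells. As shares of all cells, 6 of 8 types (75.0%) and 10 of 14 clusters (71.4%) were past 1.5-fold, so that a large fold was the usual case here. The acinar share alone moves other shares among the non-endocrine cells: immune cells were 199 of 398 of them on the normal diet and 282 of 472 (59.7%) on the high-fat diet with acinar cells counted, and 68.4% and 59.9% without.

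**Figure D2:**
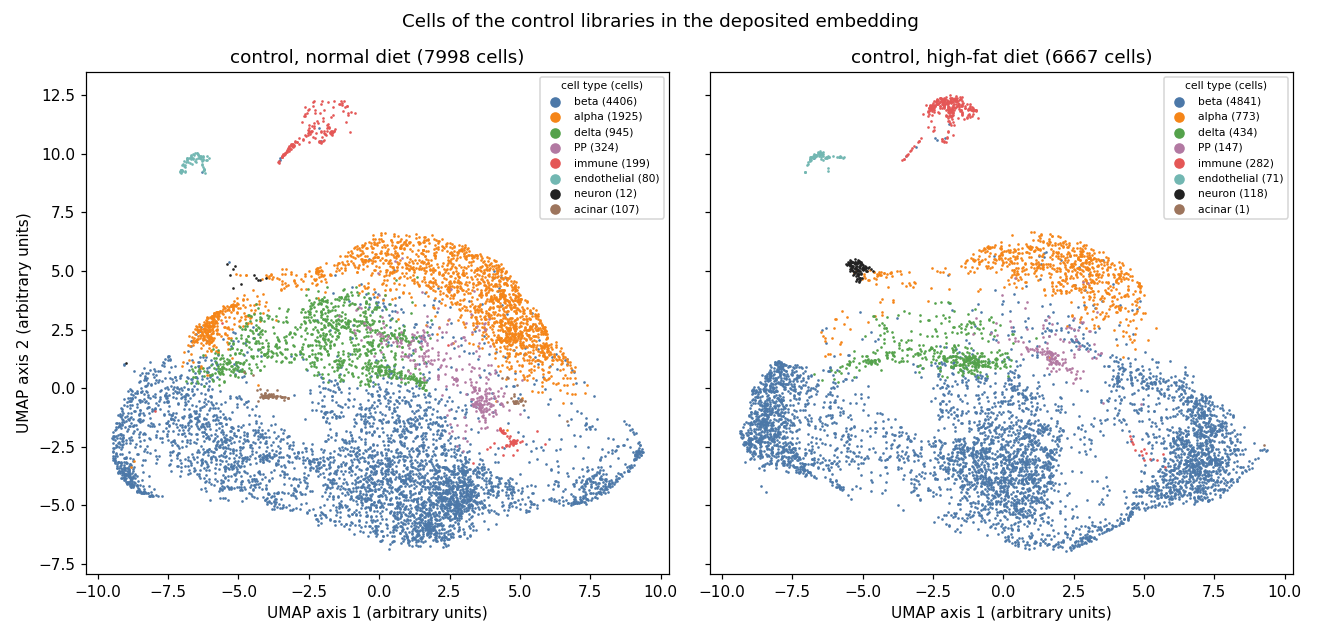
Each cell of the control normal-diet library (left) and the control high-fat library (right) at its deposited position on both axes of the UMAP embedding (arbitrary units), coloured by annotated cell type. Dense patches of alpha, PP, acinar and immune cells in the left panel are sparse or empty on the right, while the neuron patch and the right edge of the beta cells are fuller on the right.

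Positions in the embedding, a map in which cells with similar expression tend to lie near each other, were compared within each type. Distances in such a map are not distances in expression, and its units are arbitrary, so each shift is also given relative to the spread of the cells (the root mean square distance from their library's mean). By this spread, alpha, delta, PP and immune cells lay in a tighter area on the high-fat diet. The ratio of high-fat to normal-diet spread was 0.644 for alpha, 0.740 for delta, 0.611 for PP and 0.538 for immune cells. Immune cells fell into 2 groups, described below, and the larger group alone had a ratio of 0.778. For endothelial cells the ratio was 0.970 and for beta cells 1.14. The high-fat spread was thus the smaller in 5 of 6 types with at least 20 cells in each library (83.3%). By the median distance from the median position, the ratio was 0.696 for endothelial and 1.63 for beta cells. For alpha, delta, PP and immune cells it was then 0.631, 0.636, 0.484 and 0.364.

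Beta cells as a whole moved little relative to their wide spread, though by more units than delta (0.502) or endothelial cells (0.235). The mean position of beta cells differed by 0.977 units. This is 18.0% of their spread and the smallest such percentage among the 6 types. This shift was the sum of parts that ran in opposite directions on the first axis. Different shares of the 6 clusters accounted for a shift of 1.20 units along the first axis and 0.19 along the second. Different positions within the clusters accounted for -0.52 and 0.51 units. The lower and upper quartiles of beta cells on the first axis were -4.73 and 2.36 on the normal diet and -5.07 and 5.16 on the high-fat diet. With equal weight for the 6 clusters in both libraries, the spread ratio of beta cells was 0.987 in place of 1.14. By the median distance from the median position, without such weights, it was 1.63.

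Within the beta clusters, cluster 1 shifted most by means, at 0.608 times the spread, and cluster 7 by medians, at 0.884 times against 0.846 for cluster 1. The median position of cluster 1 on the first axis was 1.26 on the normal diet (quartiles -0.18 to 2.40) and 0.03 on the high-fat diet (-0.94 to 0.84). On the second axis its medians were -4.14 and -3.15. Of the 2443 normal-diet cells of cluster 1, 382 (15.6%) had only normal-diet cells among their 30 nearest neighbours of the same cluster, and none of the 1718 high-fat cells had only high-fat neighbours. Such counts depend on which library has more cells of the cluster. Relative to the share that cell numbers give, neighbours from the own library were 1.15 times that share for normal-diet and 1.32 times for high-fat cells. Those 382 cells lay to the right of the others, with a median of 2.93 on the first axis against 0.84 for the remaining normal-diet cells. The control normal-diet library also lay apart from both cKO libraries with at least 20 cells of this cluster, and its part in the shift was not tested.

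In cluster 3, most of whose cells came from the high-fat library (855 against 171), neighbours from the own library were 1.53 times the share given by cell numbers for normal-diet cells and 1.05 times for high-fat cells. Among its high-fat cells, 124 (14.5%) had only high-fat neighbours of the same cluster, with a median of 6.41 on the first axis against 4.63 for the others. The cells of cluster 7 were centred at 7.60 on the first axis on the normal diet and at 7.0 on the high-fat diet, and at -4.01 and -3.26 on the second (medians). In cluster 5 the means lay 31.2% of the spread apart and the high-fat cells were tighter, with a spread ratio of 0.656. Cluster 6 differed least, with means 0.140 times the spread apart (medians 0.266 times) and a spread ratio of 1.05. Cluster 9, with 71 and 58 cells, had means 0.311 times the spread apart and a spread ratio of 1.31. Neither value was stable: the distance was 0.685 times the spread by medians, and without cells placed among another type it was 0.673 times, with a spread ratio of 0.686.

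The alpha cells differed in position between diets far more than in cluster shares. Their mean lay 1.23 units higher on the second axis on the high-fat diet. Nearly all of this came from positions within the clusters (1.24 units) and little from cluster shares (0.085 units). In cluster 2 the median moved from 4.29 to 2.93 on the first axis and from 3.47 to 4.88 on the second, and the distance of the means was 97.4% of the spread. In cluster 8 the median on the first axis was -3.91 (quartiles -5.90 to -0.24) on the normal diet and -0.48 (-3.63 to 0.38) on the high-fat diet. The normal-diet median of cluster 8 thus lay beyond the lower quartile of the high-fat cells. In both alpha clusters the control normal-diet library lay apart from the cKO libraries that held alpha cells as well. A randomly drawn high-fat alpha cell lay higher on the second axis than a randomly drawn normal-diet alpha cell in 73.2% of pairs. For all alpha cells the shift was 0.346 times the spread by means and 0.788 times by medians.

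Delta cells shifted less, by 0.502 units or 24.4% of the spread. They were narrower on the second axis on the high-fat diet, with quartiles of 1.06 to 1.71 against 0.95 to 2.68 on the normal diet. In the normal-diet library 106 of 945 delta cells (11.2%, 9.28 to 13.4%) had mostly other types, most often beta cells, among their 30 nearest neighbours. In the high-fat library 11 of 434 did (2.53%, 1.27 to 4.49%). For beta cells the corresponding percentages were 4.81% and 5.23%, and for alpha cells 5.56% and 2.85%.

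With both immune groups counted, PP cells had the largest shift relative to their spread by means, and immune cells by medians. The immune value by means was then 0.730 times the spread. For the larger immune group alone it was 1.09 times, above that of PP cells. The median of PP cells lay at 3.03 on the first axis and 0.50 on the second on the normal diet, and at 1.73 and 1.52 on the high-fat diet. The distance of the means was 1.26 units, or 75.3% of the spread, and the distance of the medians was 1.40 times their scale. Among the types with at least 20 cells in each library, PP cells were most often placed among others: 138 of 324 normal-diet cells (42.6%) and 53 of 147 high-fat cells (36.1%) lay mostly among other types. Without them the distance of the means was 1.57 times the spread. When neighbours were sought among PP cells alone, 93 of the 324 normal-diet cells (28.7%) had neighbours of the normal-diet library only.

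The immune cells fell into 2 separate groups in the embedding, joined here by linking cells less than 1 unit apart, a rule chosen after the map had been seen. The upper group held 144 of 199 normal-diet cells and 268 of 282 high-fat cells. The lower group, inside the area of the beta cells, held 52 normal-diet cells (26.1%, 20.2 to 32.8%) and 14 high-fat cells (4.96%, 2.74 to 8.19%). The higher immune share of the high-fat library thus lay wholly in the upper group, where the cell number was 144 against 268, and the lower group was smaller there. Within the upper group the cells also lay apart, with medians on the second axis of 10.9 (quartiles 10.4 to 11.4) on the normal diet and 11.98 (11.7 to 12.2) on the high-fat diet. Which immune cells the 2 groups are is not given by the labels or the tables.

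**Figure D3:**
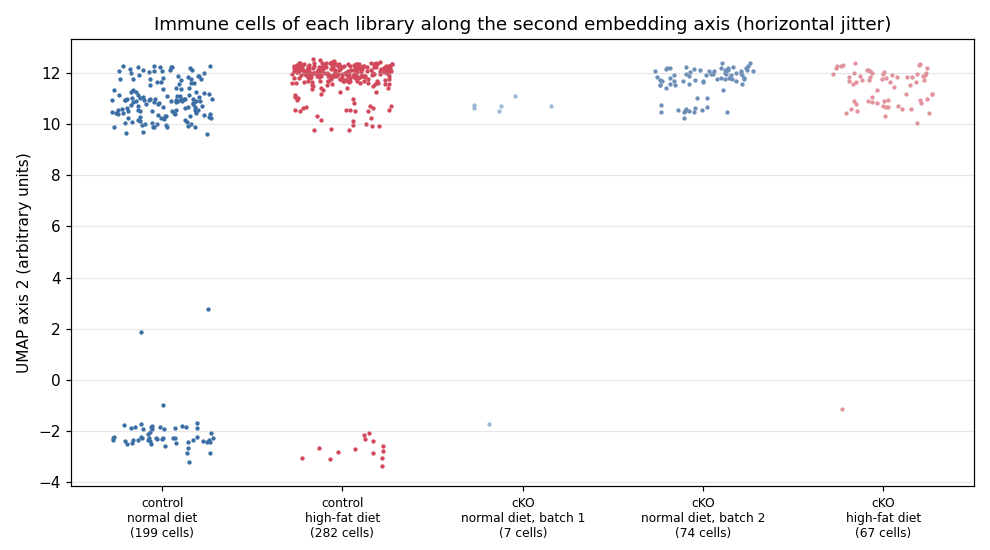
Position of every immune cell on the second embedding axis (arbitrary units), by library, with random horizontal jitter; each point is 1 cell. The lower group holds 52 of 199 cells in the control normal-diet library, 14 of 282 in the control high-fat library and no cell of the cKO batch 2 normal-diet library.

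The cKO libraries with more than 60 immune cells both resembled the high-fat control library in lower-group share and upper-group median. In the cKO normal-diet library of batch 2, 0 of 74 immune cells were in the lower group (exact interval up to 4.86%), as were 0 of 67 in the cKO high-fat library. Their medians in the upper group, 11.8 and 11.7, lay nearer to the control high-fat library than to the control normal-diet library. How cells were distributed around these medians was not compared, and cells of both cKO libraries also lay in the part where most normal-diet control cells of this group lay. The batch 1 cKO normal-diet library had 1 of 7 immune cells in the lower group and a median of 10.7 over its 6 upper cells.

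Endothelial cells, 80 on the normal and 71 on the high-fat diet, formed a single compact group in both libraries. Their means lay 0.235 units apart, which is small on the map but 58.9% of their narrow spread. High-fat cells lay higher on the second axis in 75.3% of random pairs. Neurons were too few on the normal diet for a comparison of positions. Of the 12 normal-diet cells, 6 had mostly other types, chiefly alpha cells, as neighbours, against 1 of the 118 high-fat cells. Counting only those with neighbours of their own type left 6 and 117 cells. The 107 normal-diet acinar cells lay in patches of 80 and 26 cells with 1 cell apart, and the 1 high-fat acinar cell lay among beta cells.

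Cells of both libraries were mixed less than their numbers gave in each of the 14 types and clusters with enough cells, though for high-fat cells of cluster 9 not with 50 neighbours and for those of cluster 6 not among all cells. For beta cells, neighbours from the other library made up 38.3% of neighbours of normal-diet cells where 52.4% was expected from cell numbers, 0.732 times the expected share. For high-fat beta cells the figure was 0.712. Immune cells were least mixed, at 0.577 and 0.553 times the expected share. Alpha cells stood at 0.825 and 0.802, delta cells at 0.808 and 0.718, and PP cells at 0.796 and 0.670. Among beta clusters, cluster 6 was nearest to full mixing (0.935 and 0.910), apart from the high-fat cells of cluster 9 (0.992), and clusters 5 and 7 were farthest from it (0.698 and 0.608, and 0.692 and 0.619). In small classes 30 neighbours reach across much of the class, which brings the figure nearer to 1. Counted over squares of 1 unit, the maps of both libraries overlapped by 58.9% for beta, 56.1% for alpha, 59.5% for delta, 47.7% for PP and 41.3% for immune cells, and small numbers of cells lower this figure too.

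**Figure D4:**
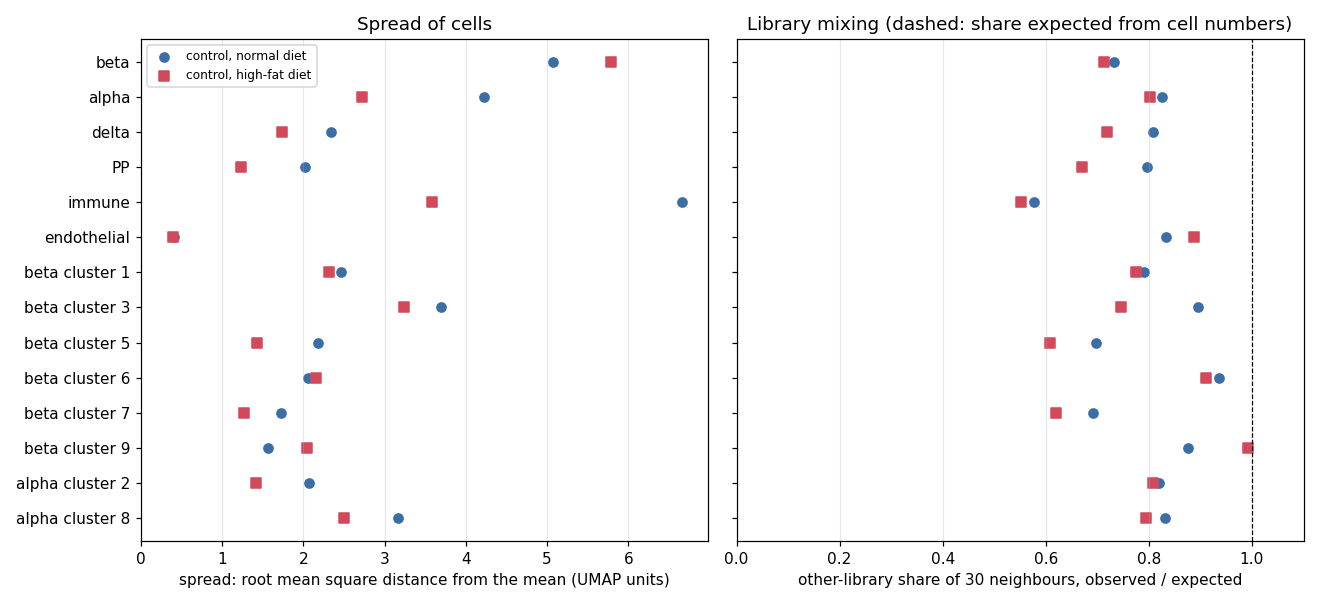
Left, spread of the cells of each control library (root mean square distance from their mean, UMAP units) by cell type and cluster; right, share of the 30 nearest neighbours that come from the other control library, over the share expected from cell numbers (1, dashed, is full mixing). High-fat cells are the less spread ones in alpha, delta, PP and immune cells, and the other-library share is lowest for immune cells, at 0.577 and 0.553.

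The size of the control diet difference was set beside that of the other pairs of libraries with at least 20 cells of a class in each. For beta cells it was the smallest of 10 pairs relative to the spread, at 0.180, whereas the 9 others, all involving a cKO library, lay between 0.328 and 0.775. The pair of cKO normal-diet libraries, which share genotype and diet, stood at 0.556, with 31 beta cells in batch 1. In delta cells the control diet pair ranked 4th of 6, in alpha cells 5th, in immune cells 3rd and in PP cells 2nd. In alpha cluster 2 it was the largest of 6 pairs, at 0.974. Within the beta clusters it ranked 2nd of 6 in cluster 1, at 0.608, and 4th of 6 in clusters 5 and 9. It was last of 6 in clusters 3 and 6 and last of 3 in cluster 7.

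In 4 of 12 classes with at least 4 such libraries, the control normal-diet library stood apart from every other one, cKO normal-diet cells of batch 2 included. These were the immune cells, beta cluster 1 and alpha clusters 2 and 8. In cluster 8 its mean was at least 2.08 units from each of the other 3 libraries, which lay within 0.211 units of each other. In immune cells the distance was at least 3.91 units, with at most 0.633 among the others, and in cluster 1 these distances were 1.45 and 0.700. In cluster 2 they were 1.05 and 0.785. The control high-fat library stood apart in this way in 0 of 12 classes. In the 4 classes named the difference between control diets is thus equally a difference of that 1 library from libraries of both diets, and its part in the result was not tested.

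**Figure D5:**
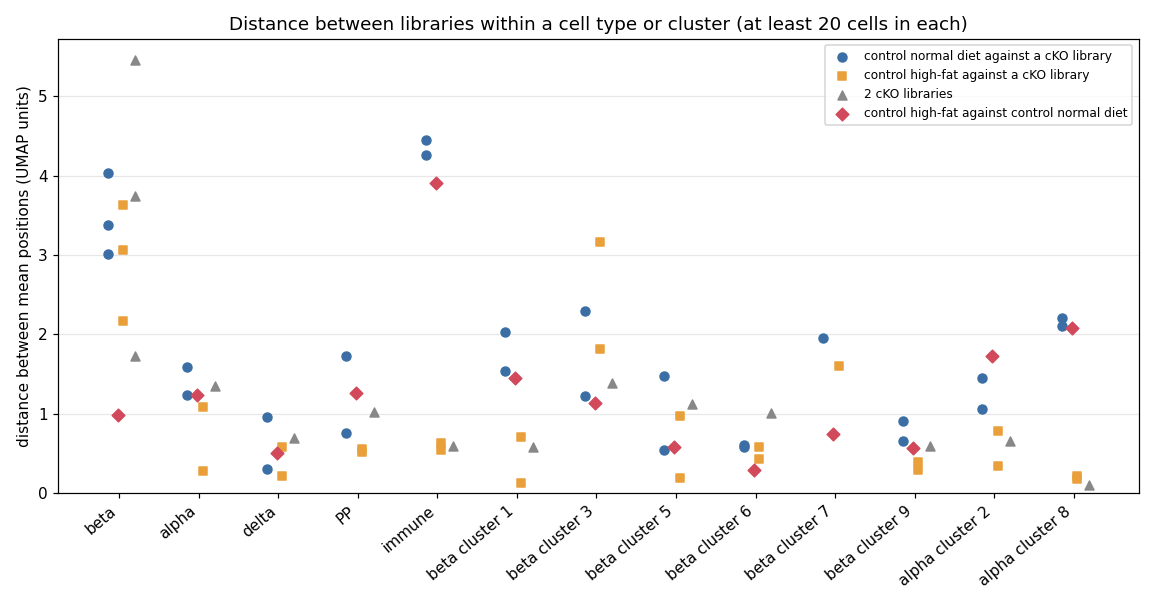
Distance between the mean positions of each pair of libraries (UMAP units) within a cell type or cluster, for pairs with at least 20 cells in each; red diamonds are control high-fat against control normal diet, blue points the control normal-diet library against a cKO library, orange squares the control high-fat library against a cKO library and grey triangles pairs of cKO libraries. In immune cells and alpha cluster 8 every pair with the control normal-diet library lies high (from 3.91 and 2.08 units) and every pair without it lies low (up to 0.633 and 0.211 units). The immune means cover both immune groups, so that different shares of the groups enter the distance.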

How the data were processed

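Cell types, cluster numbers, library names and UMAP positions were used as the authors deposited them, 1 row per cell in 4 tables joined by cell identifier. The deposited UMAP positions are scores in arbitrary units, and the other columns are labels. Cell Ranger 7.1.0 and GRCm39 are named per the submitters' processing notes. How cells were filtered, integrated, clustered and named, and how doublets were treated, is not stated in the labels or tables, and doublets were not called. Shares have exact (Clopper-Pearson) 95% intervals, ratios of ratios the exact conditional interval of the odds ratio, both for counting error only. A type entered a ratio with at least 20 cells over both libraries, and a position with at least 20 cells in each. Library mixing used the 30 nearest cells of the same class, and the counts of cells placed among another type the 30 nearest cells of any type in both libraries. No gene is named because the tables hold none; all 8 types and 14 clusters are accounted for. Members, comparisons and alternatives were chosen with earlier results of these data known. The distances of a library standing apart, the immune groups and the density overlap were added after the map had been seen. Python 3.11.15, numpy 2.4.6, scipy 1.17.1 and pandas 2.3.3 were used. The functions for the intervals of ratios, the distance between means and library mixing were checked on simulated data. Those for the split of a shift, the immune groups, a library standing apart, the density overlap and cells placed among another type were not.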

Additional observations from a re-analysis of the deposited data

Results flagged for a closer look

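Immune cells per beta cell differed with diet in opposite directions by genotype. Only pairs of types with cells in all 5 libraries were looked at, and this was the only such pair. In the control libraries the high-fat value was higher (5.83 against 4.52 per 100 beta cells), a log2 ratio of 0.37. In the cKO libraries it was lower, at 3.20 per 100 beta cells against 22.6 (batch 1) and 31.4 (batch 2) on the normal diet, log2 ratios of -2.82 and -3.29. Per 100 alpha cells the direction was the same in both genotypes: 10.3 on the normal and 36.5 on the high-fat diet in the control libraries, and 23.0 (batch 2) and 53.2 in the cKO libraries. The cKO library of batch 2 held 236 beta and 322 alpha cells. The batch 1 value per beta cell rests on 7 immune and 31 beta cells. The difference between genotypes was not tested, since 3 of the 4 groups held 1 library.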

How the results depend on the processing

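Of 315 values recomputed under alternatives, 6 reversed, 26 moved, and 283 stayed within a tolerance. The tolerance was the counting interval of the first value for shares and ratios, the same or last rank for library pairs, and 1.5-fold for the rest. A reversal was looked for only in spread, mixing, and the shares and ratios whose first interval excluded equality. PP per delta cell, at a log2 ratio of -0.018 and 0.003 without cells placed among another type, thus counts as within. The tolerances are wide where cells are few. Neurons per beta cell, at a log2 ratio of 3.16 and 4.16 without cells placed among another type, therefore also count as within. The beta share had a log2 ratio of 0.36 in place of 0.40 without cells placed among another type. Medians in place of means gave a displacement over spread of 0.788 for alpha (0.346), 1.40 for PP (0.753) and 1.54 for immune cells (0.730), and PP cells stood at 1.57 without cells placed among another type. The part of the alpha shift from cluster shares was then 0.140 units (0.085). The pairs past 1.5-fold numbered 7 in place of 18 without neuron and acinar cells, where fewer pairs could be formed. The pairs within 1.5-fold stayed the 3 among alpha, delta and PP cells. Reversed values were the immune share among non-endocrine cells without acinar cells (log2 ratio -0.19), the spread ratio of beta cells with equal cluster weights (0.987), that of cluster 7 by medians (1.02) and of cluster 9 without cells placed among another type (0.686), and the high-fat mixing (own-library share over expected) of cluster 6 among all cells (0.940) and of cluster 9 with 50 neighbours (0.983). Without either cKO normal-diet library the control diet pair stayed last of 6 for beta cells. No paired analysis was possible because each control group held 1 library. Precision is limited by cell numbers, above all 12 neurons and 1 acinar cell, and depth per cell is unknown.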

Other observations

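Delta and PP cells per alpha cell were higher in the cKO than in the control libraries on either diet, and PP cells per delta cell were not higher. There were 92.5 delta cells per 100 alpha cells (78.8 to 109) in batch 2 of the normal-diet cKO libraries and 102 (78.8 to 131) in the high-fat one, beside 49.1 and 56.1 in the control libraries. PP cells per 100 alpha cells stood at 26.4 (20.5 to 33.6) and 26.2 (17.3 to 38.7) in the same cKO libraries, beside 16.8 and 19.0 in the controls. PP cells per 100 delta cells were 28.5 (22.1 to 36.4) and 25.8 (17.0 to 38.1) in the cKO libraries, with intervals that overlap those of the controls (34.3, 30.1 to 38.9, and 33.9, 27.9 to 40.9). For PP cells per alpha cell the intervals of both high-fat libraries overlap too. The 40-cell cKO library had 0 alpha, delta and PP cells and gives no ratio. The difference between genotypes was not tested.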
